A study of Homo sapiens with 4 samples.

Results

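The 6 chemokine genes CXCL8, CXCL1, CXCL2, CXCL3, CXCL5 and CXCL6, which lie together on the long arm of chromosome 4, were followed through the differentiation of hFOB 1.19 cells. They are 6 of the 19610 gene symbols in the mRNA table, and all 6 reached 1 FPKM (fragments per kilobase of transcript, scaled to the mapped fragments of the library) in at least 1 library. The members were chosen by family and position with their levels in these libraries already known, so their levels are a description and carry no test. hFOB 1.19 is a human fetal osteoblast line that carries a temperature-sensitive viral T antigen. It proliferates at the lower of 2 culture temperatures and differentiates at the higher one. Total RNA was sequenced on day 0, a control at the lower temperature, and on days 3, 6 and 9 of culture at the higher temperature, labelled as undergoing mineralization. The library protocol names RNase R, an enzyme that digests linear RNA, for the mRNA libraries, and if it was so used the FPKM below need not be plain mRNA levels. No drug, vector or gene deletion is named for any of these 4 samples. Each time point has 1 library of 1 line, so no value has a replicate error, and the libraries are compared with each other and not the time points. Against day 0, the time of differentiation and the change of temperature cannot be told apart, whereas days 3, 6 and 9 share 1 temperature.

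CXC chemokines are small secreted proteins that direct the movement of white blood cells. Those described here carry a Glu-Leu-Arg motif before the paired cysteines and act on the receptors CXCR1 and CXCR2, chiefly of neutrophils. Their genes are classical targets of NF-kB, a transcription factor that interleukin-1 and tumor necrosis factor activate, and their short-lived mRNAs are removed by proteins that bind AU-rich elements. Osteoblasts and other stromal cells are known to make them under inflammatory stimulation.

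The promoters of the 6 genes are shown because they hold the same short sequence at nearly the same place. All 6 genes were matched by symbol in the RefSeq promoter table (GRCh38.p14), which gives 250 bases before and 50 after each start site. The stretches below run from 140 bases before the start to 10 after it, 5′ to 3′ in the direction of transcription. Capitals mark GGAATTTCC, a kB-type motif bound by NF-kB, further ATAAA between 40 and 20 bases before the start, part of a TATA-like element, and in CXCL8 an AP-1-type TGANTCA motif.
CXCL8, chr4:73740429-73740578, plus strand: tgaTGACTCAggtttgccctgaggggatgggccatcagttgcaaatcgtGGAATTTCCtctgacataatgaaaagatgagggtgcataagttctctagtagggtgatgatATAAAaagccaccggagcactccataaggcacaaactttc
CXCL1, chr4:73869253-73869402, plus strand: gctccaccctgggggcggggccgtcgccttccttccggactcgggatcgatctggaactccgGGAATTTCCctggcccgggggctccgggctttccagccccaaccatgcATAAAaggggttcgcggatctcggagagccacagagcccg
CXCL3, chr4:74038680-74038829, minus strand: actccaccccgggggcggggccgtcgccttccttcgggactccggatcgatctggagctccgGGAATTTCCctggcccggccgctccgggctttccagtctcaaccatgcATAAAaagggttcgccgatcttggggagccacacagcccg
CXCL2, chr4:74099186-74099335, minus strand: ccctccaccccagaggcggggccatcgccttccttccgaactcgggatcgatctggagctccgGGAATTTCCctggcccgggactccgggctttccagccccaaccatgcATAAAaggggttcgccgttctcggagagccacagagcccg
CXCL6, chr4:73836538-73836687, plus strand: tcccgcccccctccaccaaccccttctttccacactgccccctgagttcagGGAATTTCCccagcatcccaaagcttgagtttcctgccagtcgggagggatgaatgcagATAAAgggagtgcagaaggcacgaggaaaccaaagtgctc
CXCL5, chr4:73998668-73998817, minus strand: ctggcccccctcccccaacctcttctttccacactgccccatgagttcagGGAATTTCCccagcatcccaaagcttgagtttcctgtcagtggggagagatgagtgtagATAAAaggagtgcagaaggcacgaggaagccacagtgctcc

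The letters GGAATTTCC were searched on both strands of the whole windows, and each of the 6 promoters held them once, on the strand of the gene. They are held by 162 of the 35116 promoters in the table, or 0.461%. The motif began 91 bases before the start site in CXCL8, 90 in CXCL5 and 89 in CXCL6. It began 78 bases before the start in CXCL1 and CXCL3 and 77 in CXCL2. The GRO genes CXCL1, CXCL2 and CXCL3 thus had it nearer to the start than the other 3. ATAAA began 30 bases before the start in 5 of the genes and 31 in CXCL5, and 4.45% of all promoters have it between 40 and 20 bases before the start. TGANTCA, searched likewise, occurs in 7.71% of all promoters and was found in CXCL8 alone of the 6, beginning 137 bases before the start. The windows are related by descent and are not independent of each other. In a global alignment, the CXCL1 and CXCL3 promoters were identical at 82.5% of the aligned columns and those of CXCL5 and CXCL6 at 83.1%. The CXCL8 promoter had between 43.0% and 44.7% with the other 5. A match is a description of the letters and does not show that a factor was bound in these cells.

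**Figure D1:**
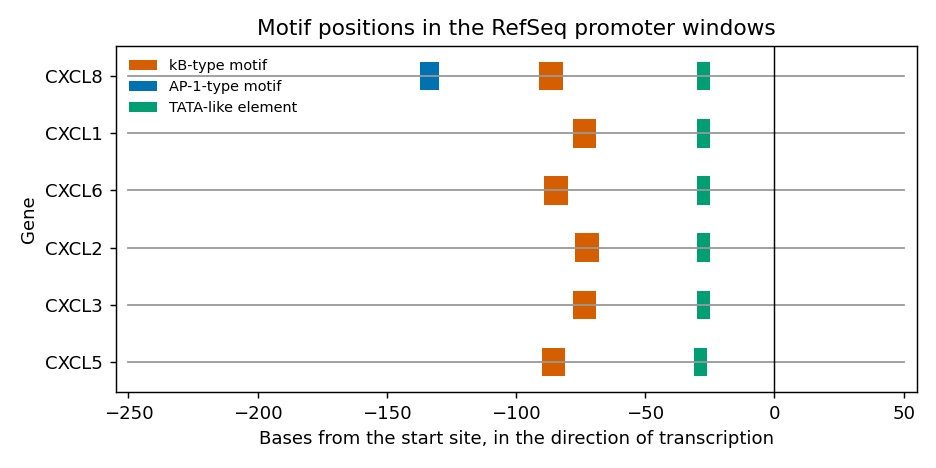
Positions of 3 motifs in the promoter windows of the 6 genes, in bases from the start site (0, vertical line). All 6 hold a kB-type motif that begins between 77 and 91 bases before the start and a TATA-like element that begins 30 or 31 bases before it, and CXCL8 alone holds the AP-1-type motif.

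In the order of the RefSeq annotation, 9 protein-coding genes run from CXCL8 to CXCL2: CXCL8, CXCL6, PF4V1, CXCL1, PF4, PPBP, CXCL5, CXCL3 and CXCL2. The 3 that are not members encode chemokines of blood platelets, and each was listed at 0 FPKM in all 4 libraries. The promoter windows of PF4V1 and PPBP do not hold GGAATTTCC. The motif is not confined to the 6 genes. Of 123 other genes on the lists described here, 90 had a promoter window, and 6 of these held it. They were the chemokine genes CXCL10 and CXCL11 and the NF-kB genes NFKB1, REL, NFKBIA and NFKBIZ. Of the 43 non-member genes that were 2-fold higher from day 6 to day 9, 25 had a promoter window, and only CXCL10 held the motif. Among all genes with at least 1 FPKM in any library, 9839 had a window and 48 of these (0.488%) held it. Only these exact letters were searched, so a window without them may still hold a kB-type motif of other letters. The osteoblast label was checked against 9 markers, of which 6 reached 1 FPKM. COL1A1, a chain of type I collagen, had 777 FPKM on day 0 and 1974, 1587 and 1146 on days 3, 6 and 9. RUNX2, the transcription factor of the lineage, had 7.37 and then 26.2, 19.3 and 18.2. SP7, IBSP and BGLAP, markers of later osteoblasts, stayed under 1 FPKM in every library. Of 16 leukocyte and endothelial markers, 13 stayed under 1 FPKM, among them PTPRC, the pan-leukocyte CD45, with 0.0750 on day 0 and at most 0.441, on day 9, and S100A8, S100A9 and CD3E were listed at 0 throughout. ITGB2, a leukocyte integrin, had more in each library than in the one before, with 0.380, 0.691, 0.936 and 1.57 FPKM. CD14 went the other way, with 1.07 FPKM on day 0 and 0.398, 0.632 and 0.428 later. So did PECAM1, with 0.262 FPKM on day 0 and 0.0226 on day 9. Summed over the 16 markers, FPKM were 18.4, 39.7, 67.8 and 93.7 on days 0, 3, 6 and 9. Most of this was CD68, a lysosomal protein that stromal cells also make, with 16.2 FPKM on day 0 and 90.6 on day 9. Without CD68 the sums were 2.15, 2.24, 2.70 and 3.15, and the part of any such cells in the chemokine values was not tested. In bulk RNA, a change in the number of cells that express a gene and a change in RNA per cell cannot be told apart.

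CXCL8, known as interleukin-8 and the best studied neutrophil attractant, showed the widest range of the 6. Its FPKM, summed over its transcripts, was 3.02 in the day 0 library and 8.82, 89.1 and 452 in those of days 3, 6 and 9. Each library thus had more than the one before it, and the day 9 library had 149.6 times the FPKM of day 0. The log2 ratio to day 0, taken after 1 was added to each FPKM, was 1.29, 4.49 and 6.82. By level, CXCL8 was in place 10562 of the 19610 symbols on day 0 and in place 167 on day 9.

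CXCL1, the first of the 3 GRO chemokines, was the most abundant of the 6 on days 0 and 3. Its FPKM was 4.48 at the start and then 11.5, 35.7 and 103. The step was close to even over the 3 intervals, with 2.56, 3.11 and 2.89 times the FPKM of the library before, and the log2 ratio of day 9 to day 0 was 4.25. CXCL2, the second GRO chemokine, had 1.02, 1.15, 4.70 and 14.7 FPKM. The day 3 library was therefore close to day 0 (log2 ratio 0.09), and the higher values were those of days 6 and 9. CXCL3, the third, had 0.530, 1.01, 2.05 and 6.24 FPKM and was 11.8 times higher on day 9 than on day 0. The GRO genes are close copies of each other, and so are CXCL5 and CXCL6. How the authors' program shared out reads that match more than 1 copy is not stated, so the split among them is uncertain.

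CXCL6, granulocyte chemotactic protein-2, had 0.767, 1.76, 6.15 and 26.4 FPKM and, after CXCL8, the largest ratio of FPKM on day 9 to day 0, 34.4. On the log2 scale with 1 added, its 3.95 came after the 4.25 of CXCL1, since the 1 added weighs more on a low day 0 value. CXCL5, the epithelial-derived neutrophil attractant, was the lowest of the 6 in every library, with 0.443, 0.424, 0.977 and 3.69 FPKM. It passed 1 FPKM only on day 9. The day 0 values of CXCL2, CXCL3, CXCL5 and CXCL6 lie near or under 1 FPKM, and the number of fragments behind them is not known.

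**Figure D2:**
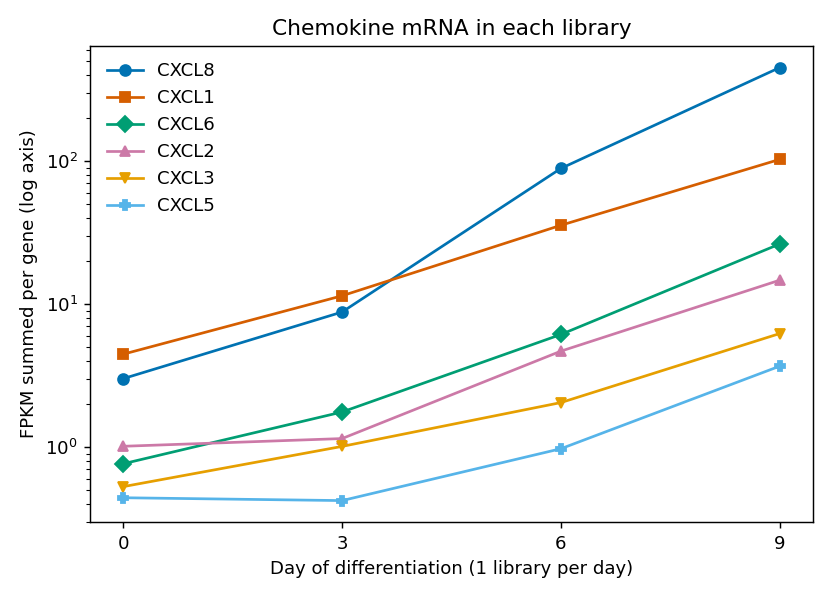
FPKM summed per gene (log axis) of the 6 chemokines against the day of differentiation, 1 library per day and no error bars. CXCL8 crosses CXCL1 between days 3 and 6 and reaches 452 FPKM on day 9, while CXCL5 is the lowest in every library and ends at 3.69.

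The 6 genes together had 10.3, 24.6, 139 and 606 FPKM in the 4 libraries, in order of time. The make-up of this sum shifted towards CXCL8, which gave 29.5% of it at day 0 and then 35.8%, 64.3% and 74.6%. The share of CXCL1 was 43.7%, 46.5%, 25.7% and 17.0%. CXCL2 gave 9.91% on day 0 and 2.43% on day 9, although its own FPKM was higher on day 9. The order of levels on days 6 and 9 was CXCL8, CXCL1, CXCL6, CXCL2, CXCL3 and CXCL5. On day 0, CXCL1 stood before CXCL8, and CXCL2 before CXCL6. With 1 library a day, whether neighbours in this order differ beyond their spread is not known.

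**Figure D3:**
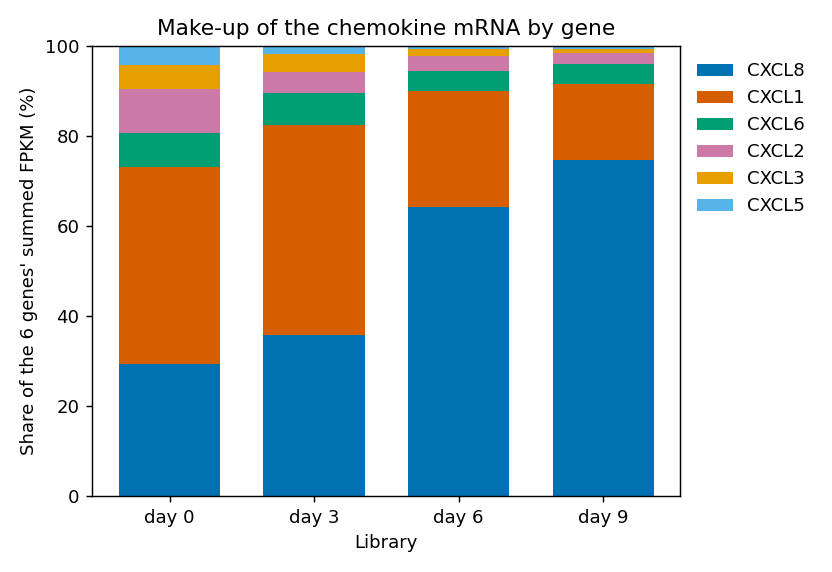
Share (%) of each gene in the summed FPKM of the 6 chemokines, 1 bar per library. The share of CXCL8 is 29.5% on day 0 and 74.6% on day 9, and that of CXCL1 is 43.7% and 17.0%.

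A fixed limit was used to describe the differences between libraries: a log2 ratio of at least 1 or at most -1 after 1 was added, for the 12859 symbols that reached 1 FPKM in any library. On day 3, 2 of the 6 chemokines, CXCL8 and CXCL1, were 2-fold higher than day 0, against 8.13% of all genes. On day 6 these were 4 of 6, with CXCL2 and CXCL6 added, against 9.01%. CXCL3 lay just under the limit with 0.9962 and passed it under each of 3 rescalings of the libraries (1.02 to 1.08), and CXCL5 had 0.45. On day 9 all 6 were higher, against 9.60% of all genes, with ratios from 1.70 for CXCL5 to 6.82 for CXCL8. None of the 6 was 2-fold lower on any day. Of all genes, 5.30%, 6.42% and 6.52% were lower on days 3, 6 and 9, so none among 6 genes is near the background. The median log2 ratio of the 6 genes was 0.52, 1.76 and 3.46, and that of all genes was -0.08, -0.08 and -0.09. Of the genes past the limit, 60.6% were higher on day 3 and 58.4% on day 6, and these shares were 77.8% and 74.2% once the libraries were rescaled to the same total. The same library, that of day 0, stands in all 3 of these comparisons.

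The comparisons between later libraries do not involve day 0 or the change of temperature, and fewer genes were 2-fold higher in them. From day 3 to day 6, 4 of the 6 chemokines were 2-fold higher, against 0.607% of all genes (78 of 12859). CXCL8 had a log2 ratio of 3.20, in place 2 of all genes, and CXCL1, CXCL2 and CXCL6 had between 1.37 and 1.56. CXCL3 and CXCL5, the lowest of the 6, had 0.60 and 0.47. From day 6 to day 9 all 6 were 2-fold higher, against 0.381% of all genes. The chemokines were thus 6 of the 49 genes past the limit in this last interval. CXCL8 had a log2 ratio of 2.33, CXCL6 of 1.94, CXCL2 of 1.46, and CXCL5 and CXCL3 of 1.25, while CXCL1 had 2.89 times its day 6 FPKM. Ordered by this ratio among all genes, they stood in places 5 (CXCL8), 10 (CXCL6), 16 (CXCL1), 21 (CXCL2), 28 (CXCL5) and 29 (CXCL3). Among the 4262 genes whose highest FPKM was from 1 to 10, the range in which CXCL3 and CXCL5 lie, 0.516% were 2-fold higher from day 6 to day 9. As the members were chosen with these values known, the counts describe the genes and test nothing.

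**Figure D4:**
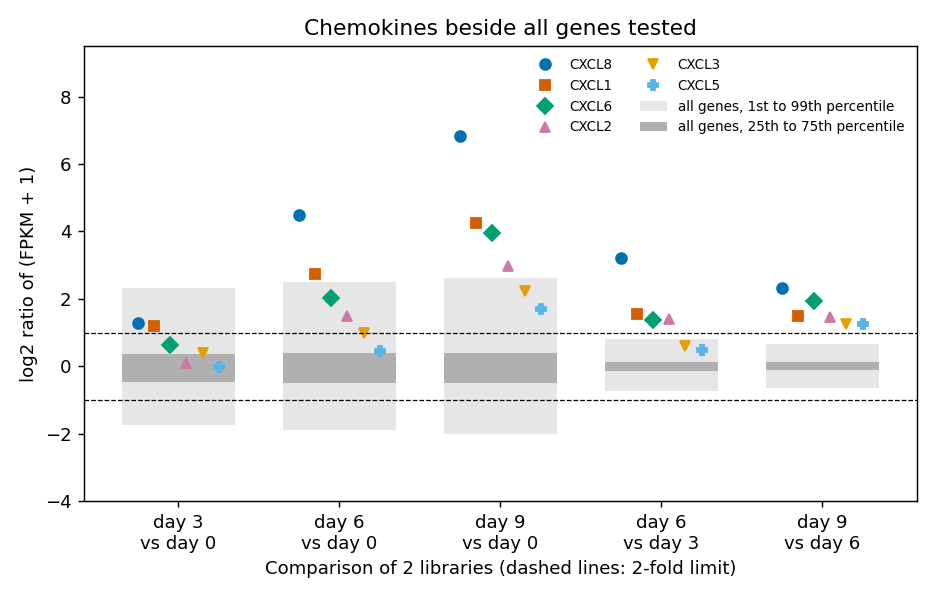
Log2 ratios of FPKM + 1 for the 6 chemokines (symbols) in 5 comparisons of 2 libraries, beside the 1st to 99th (light) and 25th to 75th (dark) percentiles of all 12859 genes. From day 6 to day 9 all 6 lie between 1.25 and 2.33, while the 99th percentile of all genes is 0.66.

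Over the 3 successive intervals, 10 genes were 2-fold higher in every one. CXCL8 and CXCL1 were 2 of them. The other 8 were IL1A, IL1B, CSF2, IL6, C3, SAA1, SAA2 and UBD, of which C3 and IL6 are named after their values were seen. IL1A, IL1B, IL6 and CSF2 encode cytokines, SAA1 and SAA2 an acute phase protein, C3 a complement component and UBD a ubiquitin-like modifier.

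The transcripts were examined one by one. CXCL1, CXCL2, CXCL3 and CXCL5 have 1 transcript each in the table. Of the 2 CXCL8 transcripts, ENST00000307407 carried between 92.4% and 100% of the gene's FPKM and had 3.02, 8.16, 86.8 and 446 FPKM. The other, ENST00000401931, was listed at 0 on day 0 and had 0.668, 2.33 and 6.04 FPKM later. Both were highest on day 9. For CXCL6 the picture was less uniform. ENST00000226317 had 0.302, 1.76, 5.44 and 26.4 FPKM, and its log2 ratio to day 0 was 1.09 on day 3, past the limit that the summed gene (0.65) did not reach. ENST00000515050 had 0.464 FPKM at the start, 0 on day 3, 0.710 on day 6 and 0 on day 9. It made up 60.6% of the day 0 FPKM of the gene, so the summed CXCL6 ratios rest in part on a transcript listed at 0 in alternate libraries. Whether such zeros are absence or estimates that failed is not known.

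Outside the 6, 4 of 11 further CXC ligands reached 1 FPKM. CXCL10, an interferon-induced chemokine that attracts T cells through CXCR3, had 0.287, 1.46, 5.04 and 11.4 FPKM and was past the limit in both later intervals (log2 ratios 1.30 and 1.03). CXCL12, the marrow stromal chemokine that retains blood stem cells through CXCR4, had a different course. Its FPKM was 4.06 at the start and then 49.2, 31.8 and 20.4, so that its highest library was that of day 3 and the later ones were each lower. CXCL11 and CXCL16 stayed within the limit on every day.

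Of 20 CC, XC and CX3C ligands, 7 reached 1 FPKM, and 2, 3 and 5 of them were 2-fold higher on days 3, 6 and 9, beside 8.13%, 9.01% and 9.60% of all genes. None was lower, which among 7 genes is no more than the all-gene shares of 5.30% to 6.52% would give. CCL2, the monocyte attractant, had 23.8, 117, 276 and 313 FPKM, so it was close to level between days 6 and 9 (log2 ratio 0.18). CCL7, its neighbour in function, had 0, 1.17, 3.99 and 6.27. CCL11, an eosinophil attractant, had 0.176, 0.224, 1.78 and 2.87. CCL3, an attractant of monocytes and T cells, was listed at 0 on day 0 and had 0.177, 0.996 and 12.5 FPKM later, and CCL20, the ligand of CCR6, had 2.42 on day 9 and at most 0.159 before. From day 3 to day 6, CCL2, CCL7 and CCL11 were the 3 of these 7 past the limit, beside 0.607% of all genes. From day 6 to day 9 the 2 past it were CCL3 and CCL20, with log2 ratios of 2.76 and 1.56, beside 0.381%. Both reached 1 FPKM on day 9 alone, the library in which they were higher. The count was 1 with a minimum of 5 FPKM, and also 1 by the transcript with the highest mean FPKM.

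The receptors of the 6 chemokines were at low levels. CXCR1 had at most 0.0167 FPKM in any library and CXCR2 at most 0.629, on day 3. ACKR1, a decoy that binds these chemokines without signalling, had at most 0.219. Of 10 chemokine receptors, 3 reached 1 FPKM, and 1 of these was past the limit on each day against day 0. With 8.13% to 9.60% of all genes higher, 1 among 3 genes does not stand apart from the background. This gene was ACKR4, a scavenger of CC chemokines, with 0.853 FPKM on day 0 and 5.42, 7.05 and 5.46 later.

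Among 19 inducing ligands and receptors, both interleukin-1 genes had more in each library than in the one before, as the 6 chemokines except CXCL5 did. So did the receptors IL17RA, with 2.38 FPKM on day 0 and 2.62 on day 9, and TLR2, with 0.275 and 0.641. IL1B had 5.41, 43.9, 127 and 280 FPKM, and IL1A had 1.37, 4.68, 19.5 and 44.8. Of the 14 genes with 1 FPKM, 4, 3 and 3 were 2-fold higher than day 0 on days 3, 6 and 9. Another 3, 2 and 2 were lower. Of all genes, 8.13% to 9.60% were higher and 5.30% to 6.52% lower. IL1A and IL1B were the only 2 of the 14 past the limit in either later interval, and they were past it in both. Of all genes, 0.607% and 0.381% were 2-fold higher in these intervals. TNF had at most 0.0973 FPKM, and IL17A was listed at 0 in every library. The antagonist IL1RN had at most 0.127 FPKM. The receptor IL1R1 had 2.87 FPKM on day 0 and 4.27 on day 9, within the limit. TLR3, a sensor of double-stranded RNA, was higher on all 3 days against day 0 (log2 ratio 1.40 on day 9). IL17RC, a subunit of the interleukin-17 receptor, and MYD88, the adaptor of the interleukin-1 and Toll-like receptors, were lower (-2.15 and -1.40).

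All 17 transcription factors and inhibitors reached 1 FPKM, and 2, 8 and 9 of them were 2-fold higher than day 0 on days 3, 6 and 9, with none lower. The shares over all genes were 8.13%, 9.01% and 9.60% higher and 5.30%, 6.42% and 6.52% lower. The day 3 count and the absence of lower genes thus lie near the background. Their median log2 ratio on day 9 was 1.03. RELB and NFKB2, which form the NF-kB dimer of the alternative pathway, had 6.45 and 25.3 FPKM on day 0 and 25.9 and 61.9 on day 9. NFKBIZ, a nuclear partner of NF-kB, had 9.15 and 31.5. CEBPB and CEBPD, factors that act at many cytokine promoters, had 21.9 and 7.17 FPKM on day 0 and 71.6 and 23.2 on day 9, and FOSL2, a subunit of AP-1, had 42.9 and 102. In both later intervals none of the 17 was past the limit, and their medians were 0.23 and 0.13. Of all genes, only 0.607% and 0.381% were 2-fold higher in these intervals, so this count too lies near the background. RELA, the main activating subunit, was within the limit on every day.

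Of 10 genes for mRNA decay and its control, 1 was higher and 1 lower on each day against day 0, and none was past the limit between later libraries. With 8.13% to 9.60% of all genes higher and 5.30% to 6.52% lower, these counts are near the background. ZFP36L1, which binds AU-rich elements and promotes decay, had 34.1 FPKM on day 0 and 154 on day 9. HNRNPD, the AU-rich element binding protein AUF1, had 316, 96.3, 63.9 and 54.6 FPKM. ZFP36, tristetraprolin, had 17.7 FPKM on day 0 and 12.9 on day 9. Of 11 genes that flank the cluster, 5 reached 1 FPKM, and 1 of them was past the limit on each day against day 0. With 8.13% to 9.60% of all genes higher, 1 among 5 genes does not stand apart from the background. This gene was AREG, the growth factor amphiregulin. It had 3.16 FPKM on day 0, and its highest library was that of day 3 with 16.3. EPGN and EREG were highest on day 9, as all 6 chemokines were, and the remaining ANKRD17 and MTHFD2L on day 0. EPGN had 2.60, 1.03, 2.40 and 5.51 FPKM, and EREG had 0.687, 0.221, 0.785 and 1.74. Both stayed within the limit with 1 added, but with 0.1 added 2 of the 5 genes were past it in each later interval.

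**Figure D5:**
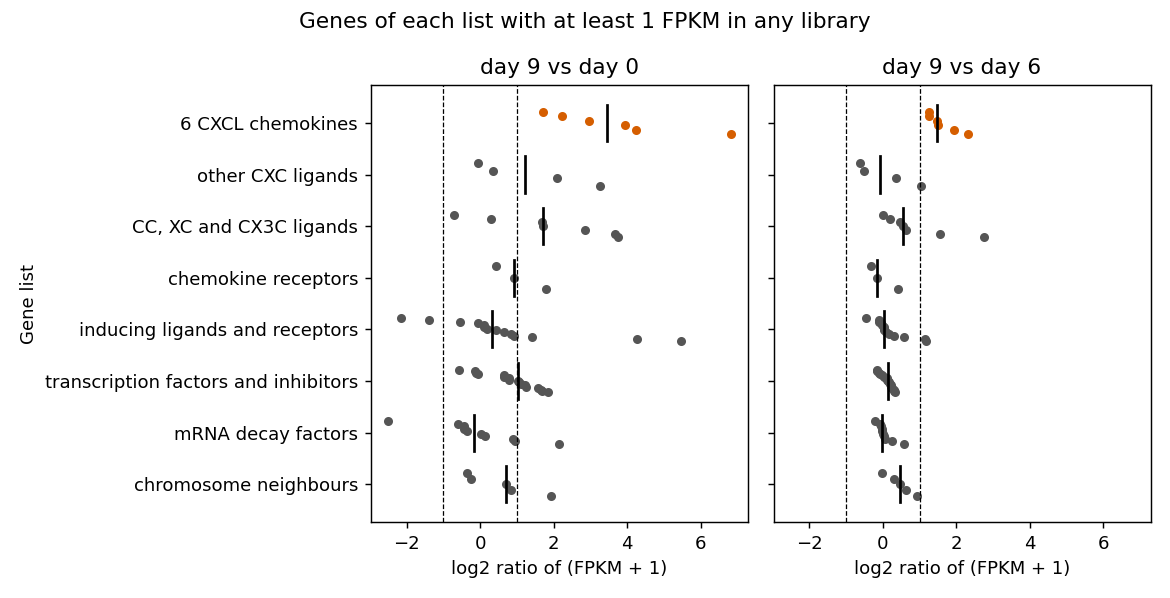
Log2 ratios of FPKM + 1 of the genes in 8 lists that reached 1 FPKM in any library, day 9 against day 0 (left) and day 9 against day 6 (right), with list medians as vertical bars and the 2-fold limit dashed. In the right panel all 6 CXCL chemokines lie past the limit, as do 5 genes of the other lists (CXCL10, CCL3, CCL20, IL1A and IL1B).

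Likeness to a chemokine was taken as the Euclidean distance between the 3 log2 ratios to day 0, so a smaller value means a closer course over the 4 libraries. The 5 genes nearest to CXCL8 were SAA1 (distance 1.09), SAA2 (1.61), UBD (1.64), CSF2 (1.78) and IL1B (2.05). SAA1 and SAA2 encode serum amyloid A, an acute phase protein, and as near-identical copies they could share reads. SAA1 had 1.12, 9.94, 46.7 and 208 FPKM. UBD, a ubiquitin-like protein induced by cytokines, had 0.0655, 4.41, 20.5 and 49.8, and CSF2, the growth factor GM-CSF, had 0.137, 7.13, 45.6 and 130. With 1 added, all 5 were nearer to CXCL8 than any other chemokine of the 6 was, the nearest being CXCL1 at 3.11. With 0.1 added this held for SAA1 (1.59) and IL1B (2.14), while SAA2, UBD and CSF2 (4.02 to 4.79) were farther from CXCL8 than CXCL6 (3.03) and CXCL1 (3.28). CXCL1 was nearest to IL1A (0.373) and C15orf48 (0.593), and CXCL6 to C15orf48 (0.473) and SERPINA9 (0.76). CXCL2 was nearest to ESM1 (0.249) and DPP4 (0.545), CXCL3 to TIMP3 (0.138) and CST1 (0.319), and CXCL5 to DIRAS3 (0.226) and CLDN14 (0.311). The nearest pair among the 6 was CXCL3 and CXCL5, at 0.872, but with 0.1 added in place of 1 it was CXCL1 and CXCL6, at 0.511, and CXCL3 and CXCL5 were at 1.29. These neighbours depend on the 1 added to each FPKM: with 0.1 added, 2 of the 5 nearest to CXCL8 were the same genes, and so were 0 of the 2 for CXCL1, CXCL2 and CXCL3 and 1 of the 2 for CXCL5 and CXCL6.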

How the data were processed

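Total RNA of hFOB 1.19 cells was depleted of ribosomal RNA, and 1 library per time point (days 0, 3, 6 and 9) was sequenced. The labels describe RNase R for the mRNA libraries. This enzyme digests linear RNA, so if the description is right the FPKM need not be plain mRNA levels, which was not tested. Per the study's methods, reads were aligned with TopHat. The submitters' processing notes name Bowtie 0.12.2 and the mouse build mm8, although the identifiers are human, and the program behind the FPKM is not given in the sources used here. The authors deposited FPKM for 79798 transcripts. Columns were matched to samples by the day in the titles. Deposited comparison tables (fold changes, p-values, q-values), lncRNA and circRNA tables were not used.

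FPKM were summed per symbol. Log2 ratios were taken after 1 was added, for the 12859 symbols with at least 1 FPKM in any library, and at least 1 or at most -1 was the 2-fold limit. FPKM carry no read counts, so depth is unknown and no interval could be given. With 1 library per time point, no test was made. The code that computes the ratios and applies the limit was run on simulated data, which says nothing about the error of the libraries. Members and gene lists were chosen with earlier results of these data known. Named are all members, in each list at most 6 genes past the limit with the largest day 9 ratios and marker or receptor checks, and the nearest genes (5 for CXCL8, 2 for each other member). ACKR1, ANKRD17, C3, CXCL11, CXCL16, EPGN, EREG, IL1R1, IL1RN, IL6, IL17A, IL17RA, MTHFD2L, NFKB1, NFKBIA, PF4, PF4V1, PPBP, REL, RELA, TLR2, TNF and ZFP36 are named outside this rule, after their values were seen. Promoters were aligned globally (match 1, mismatch -1, gap -3 and -0.5). Alternatives covered the pseudocount, the minimum, the limit, 3 rescalings and the top transcript; ratios of FPKM with nothing added were chosen after seeing the data. Python 3.11.15, numpy 2.4.6, pandas 2.3.3, Biopython 1.88 and matplotlib 3.10.9 were used.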

Additional observations from a re-analysis of the deposited data

How the results depend on the processing

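No paired analysis was possible because there is 1 library a day, and for the same reason no library could be left out. Of 265 log2 ratios of the 6 chemokines under the alternatives run, none past the limit changed its sign, and 12 fell below and 12 came above the limit in use. With a 4-fold limit, stricter by construction, 0 of the 6 were higher on day 3 against day 0, 1 from day 3 to day 6 and 1 from day 6 to day 9, and of all genes 214, 259 and 301 were higher and 99, 119 and 133 lower on days 3, 6 and 9, and 9 higher in each later interval. With 0.1 added in place of 1, 116 genes instead of 49 were 2-fold higher from day 6 to day 9, and 180 instead of 78 from day 3 to day 6; by the top transcript alone the former count was 80. CXCL3 passed the limit on day 6 against day 0 under all 3 rescalings (1.02 to 1.08) and with 0.1 added (1.77). CXCL6 passed it on day 3 with 0.1 added (1.10) and by its top transcript (1.09), and CXCL5 from day 3 to day 6 with 0.1 added (1.04). With a minimum of 5 FPKM, CXCL5 left the genes compared. With nothing added, a setting chosen after seeing the data, the day 9 ratios of CXCL2, CXCL3, CXCL5 and CXCL6 were 3.86, 3.56, 3.06 and 5.10. Rescaled to the same total, 399 genes instead of 681 were lower on day 3 and 507 instead of 825 on day 6, and the chemokines' ratios moved by -0.06 to 0.17. The median of all genes on day 3 moved from -0.08 to 0.10 in that setting. The depth behind low FPKM is unknown, which limits CXCL3 and CXCL5 most.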
